A study of Callithrix jacchus with 4 samples.

Results

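The substantia nigra pars compacta of 1 common marmoset, taken 2 h after a dose of MPTP, was compared with that of 1 vehicle-treated marmoset on 1 of the 4 arrays of a time course. All features of that array with exactly 1 gene symbol were used, and they gave values for 18014 genes. The study used 5 male marmosets aged 3 years. The control animal received vehicle, and each of the other 4 was injected intravenously, under pentobarbital anaesthesia, with MPTP once, at 2.5 mg/kg. Tissue was taken from 1 of these animals after 2 h, and from the others after 6 h, after 1 day and after 14 days. A strip of the nucleus on 1 side was cut out by laser, tissue from 2 slides was pooled, and the RNA went through 2 rounds of amplification before labelling. Cy5 marked the MPTP animal and Cy3 the vehicle animal, dyes were not swapped, and the vehicle RNA was the same on all arrays. Animal, array, amplification and dye therefore cannot be told apart from the effect of MPTP at 2 h, and no difference could be tested.

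The pars compacta holds the midbrain dopamine neurons that project to the striatum and that degenerate in Parkinson's disease. MPTP enters the brain, where monoamine oxidase B in glia converts it to MPP+. The dopamine transporter carries MPP+ into dopamine neurons, and there it inhibits respiration at mitochondrial complex I.

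Values below are log2 ratios of MPTP over vehicle, read from deposited ratios for which the table states neither scale nor direction. With vehicle as numerator, all signs would be opposite. An SD beside a gene is the spread over its array features, n is the number of features, and neither covers the spread between animals. The words higher and lower, used of counted genes, mean a median over features past 2-fold. Signal over background is unknown, since no intensities were in the table, so the presence of a tissue marker could not be checked by level. A captured strip holds every cell type of the nucleus, and fewer cells of a type and less RNA per cell cannot be told apart.

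At 2 h, 985 of 18014 genes (5.47%) were at least 2-fold higher and 1301 (7.22%) at least 2-fold lower. The median gene stood at 0.03, with quartiles of −0.35 and 0.36. The interquartile range was 0.71, against 0.52, 0.36 and 0.41 on the 6 h, 1 day and 14 days arrays, so the 2 h array was the widest of the 4. Among features, 2066 (4.70%) were exactly 0 at 2 h, and 275 genes had every feature at exactly 0. Values at the outer limit of the deposited scale were read by 8 features on the high side and 4 on the low side.

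**Figure D1:**
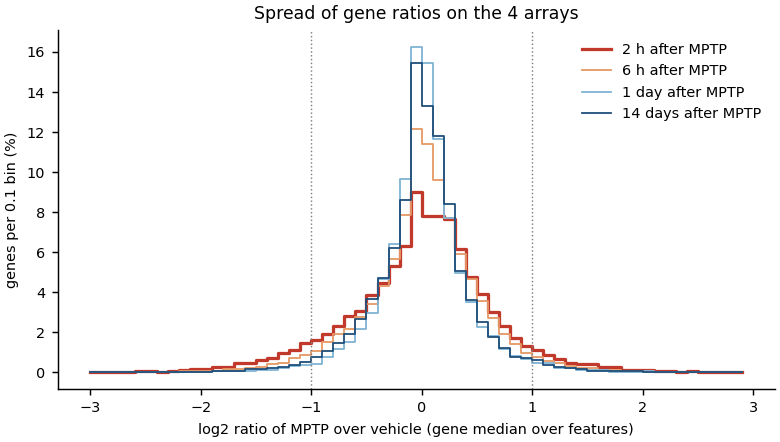
Share of the 18014 genes in each 0.1-wide bin of the log2 ratio of MPTP over vehicle (x axis), drawn as 1 line per array, with dotted lines at 2-fold. The 2 h line is the lowest at the centre and the widest, and 66 genes beyond 3 in size at 2 h are not drawn.

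The features of a gene often disagreed at 2 h. Of 5162 genes with exactly 2 features, 2881 (55.8%) had both on the same side of 0, and the median distance between the features was 0.56. In 1406 of them (27.2%) the features lay more than 2-fold apart. Among genes with 1 feature, 797 (7.52%) were higher and 921 (8.69%) lower, against 188 (2.54%) and 380 (5.13%) of the genes with 2 or more. A single reading past 2-fold was thus more frequent than a median over several.

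Genes with 10 or more features had a median feature SD of 0.31, against 0.45 over all genes with 2 or more. The annotation does not say which features carry the same probe, so some may be repeat spots of 1 probe. Feature SDs, n and agreement between features can then describe repeated spots and not separate probes. Of 71 such genes, 54 had a feature SD under 0.5, none was higher and 11 were lower (15.5%). RPAP3, a partner of HSP90 in the assembly of RNA polymerases, was at −2.27 ± 0.07 (SD, n = 10). SPP1, which encodes osteopontin, was at −1.57 ± 0.11. ZZZ3, a subunit of the ATAC histone acetyltransferase, was at −1.51 ± 0.14. TRMT10C, part of mitochondrial RNase P, was at −1.20 ± 0.13, and SMARCAD1, a chromatin remodeller, at −1.19 ± 0.19. These 5 had narrow spreads, whereas RINT1 had a median of −1.56 with features from −3.34 to 5.03. UCHL5, a proteasome-bound deubiquitinase, stood at −1.24 ± 0.47 (n = 12), and ERGIC2, of the early secretory pathway, at −1.44 ± 0.64 (n = 11).

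**Figure D2:**
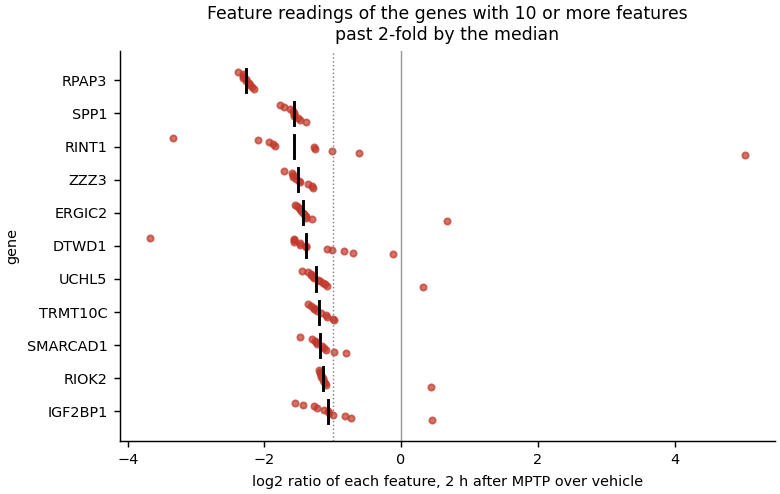
Log2 ratio of every feature at 2 h (points, x axis) for the 11 genes with 10 or more features and a median past 2-fold (y axis), with the median as a black bar. The points of RPAP3 and SPP1 lie close together, and those of RINT1 run from −3.34 to 5.03.

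Genes read by at least 2 features that all passed 2-fold in 1 direction rest on more than 1 feature, though possibly on 1 probe, and on the same pair of samples. There were 37 higher genes of 7411 with 2 or more features (0.499%) and 99 lower genes (1.34%). Their medians were 1.40 and −1.42. On the later arrays, in order of time, the 37 had medians of 0.70, 0.49 and 0.36 and the 99 of −0.84, −0.42 and −0.54. All arrays share the vehicle RNA, so values at other times are no independent repeat. Of the 37, 23 passed 2-fold at no other time, and of the 99, 55 did not. The same held for 636 of all 985 higher genes (64.6%) and 878 of all 1301 lower genes (67.5%).

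Among the agreeing higher genes, TRAPPC5, a subunit of the TRAPP vesicle-tethering complex, stood at 2.04 ± 0.07 (n = 2), with 1.01, 0.56 and 0.70 at 6 h, 1 day and 14 days. RPS15, a protein of the small ribosomal subunit, stood at 2.03 ± 0.23, with 1.13, 0.81 and 1.05 later. TRMT112, an activator of methyltransferases, was at 1.94. Enzymes and structural genes of several kinds were in this group. MAT2A, which makes the methyl donor S-adenosylmethionine, was at 1.56 ± 0.16, and CKB, the brain creatine kinase, at 1.54. NR1D2, a nuclear receptor of the circadian clock, was at 1.40 ± 0.09, and CLU, the secreted chaperone clusterin, at 1.10 ± 0.09. ALDOA, a glycolytic aldolase, was at 1.73 ± 0.74. The highest medians of the group were 4.02 for ABL2, 3.23 for VWA1 and 3.22 for NEK2. Their feature SDs were 3.69, 2.73 and 2.69, so the array does not settle their size.

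Among the agreeing lower genes, TTC12, an assembly factor of ciliary dynein arms, was at −3.24 ± 0.24 at 2 h and at −2.68, −2.47 and −2.79 at the later times. It was the 1 gene of the 99 past 2-fold on all 4 arrays. CPEB3, a regulator of mRNA translation, was at −2.44, and BNIP3L, a mitophagy receptor, at −2.03 ± 0.50. BNIP3L stood at −1.34, −0.23 and −0.44 at the later times, nearest to vehicle at 1 day. PSMC6, an ATPase of the proteasome's regulatory particle, was at −1.93 ± 0.27 (n = 4). GUCY1A2, a subunit of the nitric oxide receptor guanylate cyclase, was at −1.99, and SEMA6D, an axon guidance ligand, at −1.76 ± 0.01. GSTO1, a glutathione transferase, was at −1.78 ± 0.17. The members span RNA, protein and membrane functions.

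Position along the genome moved with these values. A regional median was taken over the neighbours 10 to 30 places from each gene in the marmoset order. It had an SD of 0.19 over the array at 2 h, against 0.14, 0.06 and 0.09 at 6 h, 1 day and 14 days. Of 35 agreeing higher genes with a place, 27 (77.1%) lay in neighbourhoods above the overall median, as did 19 of 92 agreeing lower genes (20.7%). Among all genes past 2-fold by the median, 576 of 831 higher genes (69.3%) and 357 of 1138 lower genes (31.4%) did so. The part of genome position in the results was not tested. With the regional median subtracted, 738 genes were higher and 1066 lower of 15312, against 831 and 1138 before.

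Across 50 gene lists and families, 11 had medians at least 0.2 from that of all genes. Lower medians were found for the cytosolic ribosomal proteins (−0.43), chaperones (−0.37), splicing factors (−0.29), proteasome subunits (−0.22) and myelin genes (−0.19). Higher medians were found for erythrocyte markers (0.49), immediate early genes other than AP-1 (0.31), markers of dopamine neurons beyond the synthesis genes (0.26), calcium and sodium channels (0.26), Notch genes (0.24) and endothelial and pericyte markers (0.23). A list median is a description of this pair of samples. With the regional median subtracted, the median was 0.14 for immediate early genes, 0.13 for Notch genes and −0.17 for splicing factors, and all 3 moved by over 1.5 times. Among genes with 2 or more features, the chaperone median was −0.20, the channel median 0.10, that of the vessel markers 0.13 and that of the myelin genes −0.33. Scaling the array to the spread of the later arrays shrinks every value by the same factor. The medians were then −0.25 for cytosolic ribosomal proteins, −0.21 for chaperones, −0.17 for splicing factors, −0.12 for proteasome subunits and −0.11 for myelin genes. On the high side they were 0.28 for erythrocyte markers, 0.18 for immediate early genes, 0.15 for dopamine neuron markers, 0.15 for channels, 0.14 for Notch genes and 0.13 for vessel markers.

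**Figure D3:**
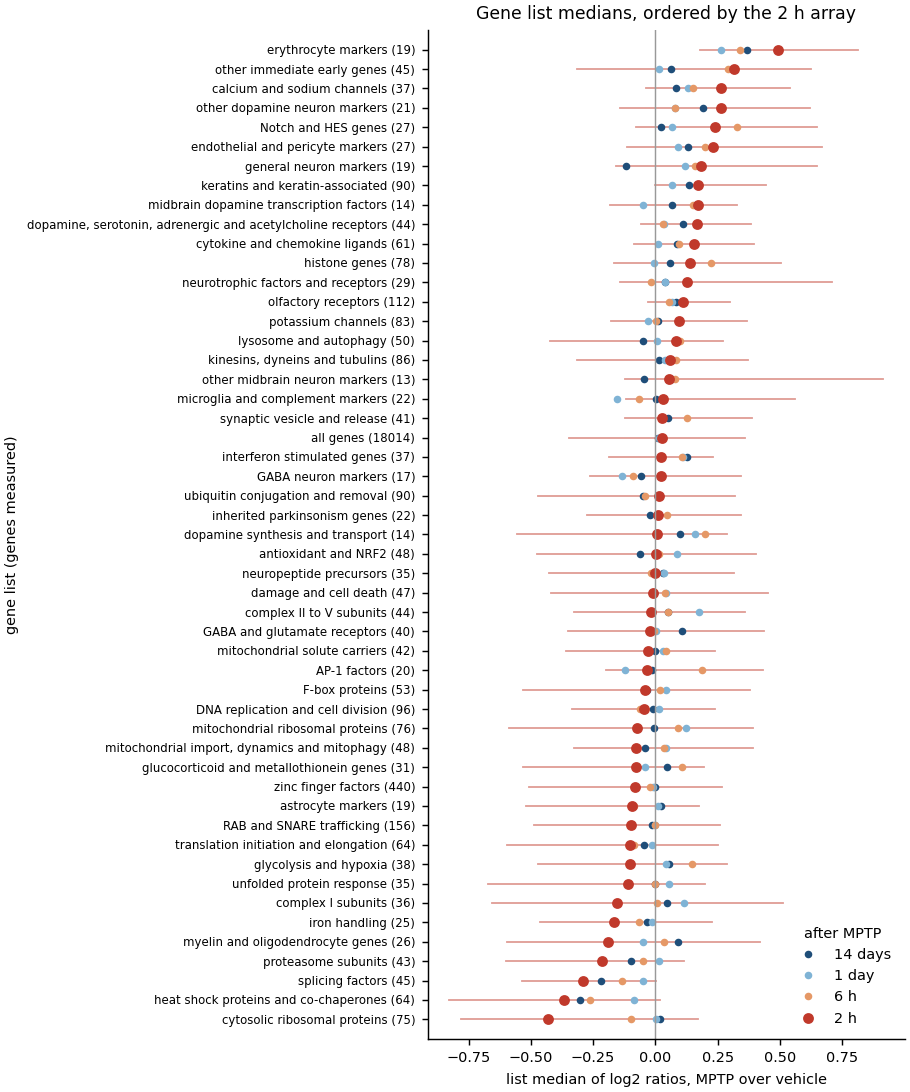
Median log2 ratio of MPTP over vehicle (x axis) of all genes and of 50 gene lists and families (y axis, genes measured in brackets) on the 4 arrays, which share the vehicle RNA. Red points are the 2 h array, red lines its quartiles over members and smaller points the later arrays, and at 2 h the medians run from −0.43 for cytosolic ribosomal proteins to 0.49 for erythrocyte markers.

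Chaperone genes lay mostly below 0, with classes that differed from each other. The chaperone list had 64 measured genes, co-chaperones included, and 46 were below 0. Of the 64, 8 were lower (12.5%) and 2 higher, beside 7.22% and 5.47% of all genes. All 10 measured chaperonin genes, whose products form barrels that fold actin, tubulin and mitochondrial proteins, were below 0, with a median of −0.97. CCT4 was at −1.58, CCT6A at −1.29 ± 0.03, HSPE1 at −1.09 and HSPD1 at −1.08 ± 0.13. HSPD1 encodes the mitochondrial chaperonin and HSPE1 its lid, and HSPD1 stood at −0.87, −0.56 and −0.78 at the later times.

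The 12 HSP70 genes were also all below 0, with a median of −0.48, but none passed 2-fold. HSPA4 was at −0.90 ± 0.02, and the stress-inducible HSPA1A at −0.94, with features at −2.28, −0.94 and −0.73. HSPH1, a nucleotide exchange factor of HSP70, was at −1.49, followed by −1.15, −0.63 and −0.65. The HSP40 partners, which deliver clients to HSP70, had a median of −0.65. DNAJB1 was at −1.56 at 2 h and −0.77, −0.05 and −0.22 later, and DNAJA1 at −1.25 ± 0.40. Both are inducible by heat, and both were lowest at 2 h.

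The exchange and adaptor proteins ran the other way, with 7 of 8 above 0 and a median of 0.44. STIP1, which links HSP70 to HSP90, was at 1.07 ± 0.63 and HSPBP1 at 0.86 ± 0.05, whereas CDC37, which brings kinases to HSP90, was at −0.78. HSF1, the master activator of heat shock genes, was at 1.78 from 1 feature, with 0.67, 0.52 and 0.51 later. HSBP1, which binds and restrains HSF1, was at −1.06 ± 0.25. HSP90AA1 was at −0.47 and HSP90AB1 at −0.05. The small heat shock proteins had a median of 0.14, with HSPB1 at 0.84 ± 0.16. HSPB9, a small heat shock protein not in the list, was an agreeing higher gene at 1.85 ± 1.09 (n = 2).

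**Figure D4:**
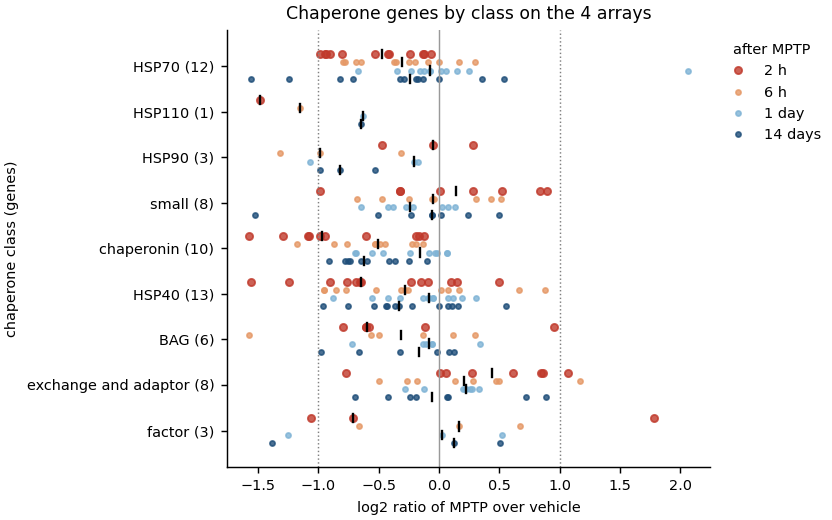
Log2 ratio of MPTP over vehicle (x axis) of each measured gene of the chaperone list (points) by class (y axis, genes measured in brackets). Each array has 1 colour, black ticks mark class medians and dotted lines mark 2-fold. At 2 h all 10 chaperonin and all 12 HSP70 genes lie below 0, and 7 of 8 exchange and adaptor genes lie above it.

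Genes of the cytosolic ribosome, the proteasome and splicing also had low medians. Among 75 cytosolic ribosomal protein genes, 12 were lower (16.0%) and 3 higher (4.00%), beside 7.22% and 5.47% of all genes. RPS3A was at −1.52 ± 0.40 (n = 6), RPS14 at −1.41 ± 0.46 (n = 4) and RPLP1 at −1.33 ± 0.15. RPS14 stood at 0.71, −0.06 and −0.61 at the later times, so it was past 2-fold lower at 2 h and not at the later times. The 3 higher members were RPS15, RPL36 at 1.63 and RPL8 at 1.22. Ribosomal protein genes have many processed copies in the genome, so their features may read more than 1 locus.

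Of 43 proteasome genes 8 were lower (18.6%) and 2 higher. Besides PSMC6, the core subunits PSMA3 and PSMA6 were at −1.50 and −1.32 ± 0.30, and the lid subunit PSMD12 at −1.17 ± 0.01. PSMB10, a catalytic subunit of the immunoproteasome, was at 1.34, and PSMG3, an assembly chaperone, at 1.85. Of 45 splicing factors 7 were lower (15.6%) and 2 higher. SRSF3 was at −1.32, HNRNPH3 at −1.31 ± 0.12 and SF3A3 at −1.22 ± 0.16. The 64 translation factors had a median of −0.10, nearer to that of all genes. Among them 7 were lower (10.9%) and none higher, led by EIF4G2 at −1.73 and EIF3E at −1.64 ± 0.52 (n = 3).

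**Figure D5:**
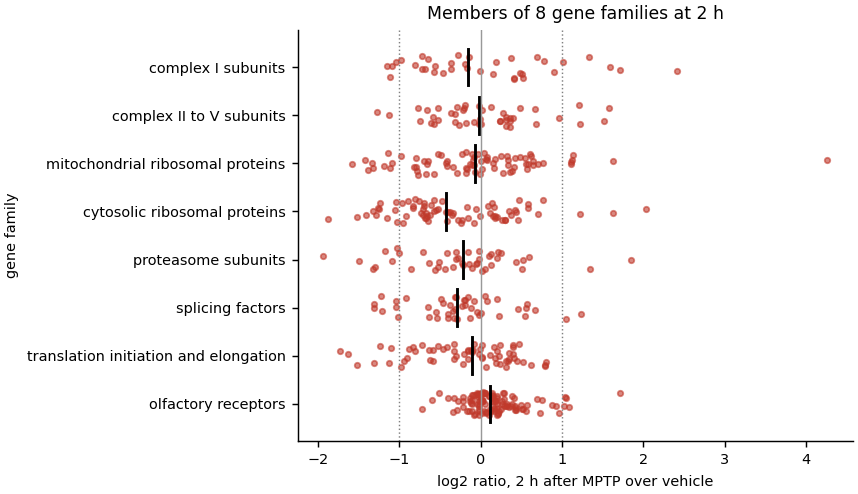
Log2 ratio at 2 h (x axis) of each member (points, spread vertically only to separate them) of 8 gene families (y axis), with medians as black bars and dotted lines at 2-fold. Cytosolic ribosomal proteins have the lowest median (−0.43). Of 112 olfactory receptors, a family used mainly in the nose, none lies past 2-fold lower. Past 2-fold higher lie 5 of them (4.46%), beside 5.47% of all genes.

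Complex I, the target of MPP+, was split. Of 36 measured subunit genes 5 were higher (13.9%) and 4 lower (11.1%), with a median of −0.16. NDUFS8, an iron-sulphur subunit, was at 2.41, followed by 1.36, 0.52 and 0.57. NDUFS7, which lies at the ubiquinone site, was at 1.33 ± 0.24, and at 1.66, 0.55 and 0.84 later. NDUFS1, which carries iron-sulphur clusters in the peripheral arm, was at −1.15 ± 0.07, with −0.71, −0.01 and −0.52 later. NDUFA2 was at −1.08 ± 0.14 and at 0.02, 0.24 and 0.03 later, past 2-fold at 2 h and near vehicle afterwards. Complexes II to V had a median of −0.02, with ATP5F1B, the catalytic beta subunit of ATP synthase, at 1.52 and UQCRB, of complex III, at −1.27.

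Genes of mitochondrial shape and turnover had values on both sides. FIS1, an outer membrane fission factor, was at 1.24 ± 0.07, while MFF, a receptor for the fission dynamin, was at −1.25 ± 0.57 and MFN2, a fusion protein, at −1.05. The import genes TIMM50 and TIMM9 were at 1.62 and −1.58. Of 76 mitochondrial ribosomal protein genes 9 were lower (11.8%) and 6 higher (7.89%), with MRPL33 at −1.38 ± 0.05 and MRPL20 at −1.19 ± 0.05. Of 38 glycolysis and hypoxia genes 2 were higher (5.26%), near the 5.47% of all genes, and none was lower. The list median was −0.10. The higher ones were GAPDH at 1.93 and ALDOA.

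Immediate early genes, which neurons switch on within minutes of activity or stress, were higher in part. Of 45 measured outside the AP-1 family, 6 were higher (13.3%) and 2 lower. NR4A1, an orphan nuclear receptor, was highest at 2.51, with 1.36, 0.28 and 0.50 later. The other 2 of 3 NR4A genes were below 0, and the median of the 3 was −0.31. EGR4 was at 1.18 and EGR3 at 0.88, both zinc finger factors, and EGR1 at 0.54. The matrix proteins CCN2 and CCN1 were at 1.19 and 1.01 ± 0.63 (n = 4). BDNF, a neurotrophin, was at 1.05, with features at 0.66 and 1.45. HOMER1, a synaptic scaffold, was at −1.49, and RGS2, an inhibitor of G protein signals, at −1.42.

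AP-1 factors were higher in 2 of 20 (10.0%) and lower in 2 (10.0%), with a median of −0.04. At 2 h, 3 of 4 genes of the FOS class and 1 of 3 of the JUN class were above 0. FOS was at 1.50 at 2 h, then 1.32 at 6 h and 1.25 on the 1 day array, and 0.00 on the last. JUN, its partner, was at −1.37, −1.03, −1.05 and −0.84. FOS was thus above 2-fold until 1 day, and JUN was below vehicle on all 4 arrays. The 4 features of FOSL2 read 0.35, 0.52, 1.27 and 2.26, all above 0.

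Genes of stress and cell death lay on both sides. Damage and cell death genes were higher in 3 of 47 (6.38%) and lower in 4 (8.51%), beside 5.47% and 7.22% of all genes. In the unfolded protein response, 5 of 35 were lower (14.3%) and 1 higher. EIF2AK3, which encodes the sensor PERK, was at −1.52, XBP1 at −1.13 ± 0.69, and PDIA6, a disulphide isomerase, at 2.04. GADD45A, a DNA damage gene, was at −2.38, −2.82, −2.73 and −3.24, low on every array. Among antioxidant genes 6 of 48 were lower (12.5%) and 2 higher. PARK7, the oxidative stress sensor DJ-1 mutated in familial parkinsonism, was at −1.03, UCP2 at 1.15 and GSTM1 at −2.85. Parkinsonism genes were higher in 2 of 22 (9.09%) and lower in 2 (9.09%), with a median of 0.01. Of those other than PARK7, FBXO7 was at −1.24 and GAK at 1.18 ± 0.84.

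Genes of dopamine synthesis and transport had values on both sides of 0, with 1 of 14 at least 2-fold lower (7.14%) and none higher. Tyrosine hydroxylase (TH), which catalyses the limiting step towards dopamine, was at 0.90 ± 0.52, with features at 0.53 and 1.27 and medians of 0.64, 0.39 and 0.50 later. The decarboxylase DDC was at −0.76. PTS, an enzyme of the synthesis of the TH cofactor, was at −2.51, and GCH1, of the same pathway, at 0.01. The vesicular transporter SLC18A2 was at 0.00, and the dopamine transporter SLC6A3 was listed at exactly 0. MAOB, which activates MPTP, was at 0.01 and MAOA at −0.67.

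Transcription factors of dopamine neurons were higher in 1 of 14 (7.14%) and lower in none. Other markers of these neurons were higher in 2 of 21 (9.52%) and lower in 3 (14.3%). LMX1B, which specifies these neurons, was at 1.76 at 2 h and 0.23, −0.20 and 0.07 later. FOXA1 was at −0.78 ± 0.12 (n = 11). SNCG, gamma-synuclein, was at 1.06 and HCN2, a pacemaker channel, at 1.47. CALB1, the calcium buffer calbindin, was at −2.19, −1.68, −1.90 and −1.79, lower on all arrays. ANXA1 was at −1.12 ± 0.07 at 2 h and at 0.20, −0.06 and 0.01 later.

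Markers of GABA neurons, which lie beside the dopamine neurons, had a median of 0.02, with 9 of 17 above 0, 2 lower (11.8%) and none higher. The lower ones were LHX6, a factor of forebrain interneurons, at −1.07 ± 1.02 and GAD2. GAD2, a GABA-synthesising enzyme, was at −2.18, with −1.30, −0.96 and −1.83 later. SLC32A1, the vesicular GABA transporter, was at −0.95, and GAD1 at −0.26 ± 1.70. PVALB, the calcium buffer parvalbumin, was at 0.35 and SST, somatostatin, at 0.34. Receptor classes differed in their spread. All 5 muscarinic receptor genes were between 0.46 and 0.79 and none of 5 kainate receptor genes was above 0, whereas 5 of 14 GABA-A genes were above 0 and the 7 NMDA genes ran from −1.19 to 1.74. In the NMDA class, GRIN1 was at 1.29 ± 0.38 (n = 3) and GRIN2D at 1.74, while GRIN2A was at −1.19 ± 1.83. The general neuron markers TUBB3 and SYN1 were at 1.62 ± 1.09 and 1.29 ± 0.74.

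Astrocyte markers had a median of −0.09, with 8 of 19 above 0, 4 lower (21.1%) and 1 higher. S100B was at −1.60, VIM, a filament protein, at −1.51 ± 0.61, AGT at −1.37, and GJA1, the gap junction protein connexin 43, at −1.34 ± 0.48. CLU was the higher one, ALDOC was at 0.99, and the water channel gene AQP4 was at 0.18. GFAP, the astrocyte filament gene, was at −0.53. Of 26 myelin and oligodendrocyte genes 3 were higher (11.5%) and 3 lower. The lower ones included ERMN at −1.46 ± 0.16 and CA2 at −1.42, whereas the lineage factors OLIG2 and NKX2-2 were at 1.35 and 1.84. MBP, at −0.92 ± 0.26, did not pass 2-fold. Of 22 microglia and complement markers 2 were higher, TYROBP, a signalling adaptor, at 2.01 and C3 at 1.28, and 1 was lower, SPI1 at −1.73.

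Blood and vessel markers were higher in part. Of 19 erythrocyte genes 3 were higher (15.8%) and 1 lower (5.26%), beside 5.47% and 7.22% of all genes. Of 9 globin genes 8 were above 0, with HBA1 at 2.66 and HBA2 at 1.19 ± 2.01. These are near-identical genes whose features can read both. The erythrocyte membrane gene RHAG was at −2.38. Of 27 vessel genes 3 were higher (11.1%) and 1 lower (3.70%). The 17 endothelial genes had 1 higher (5.88%), near the share of all genes, and a median of 0.14. The 10 pericyte and smooth muscle genes had 2 higher, 1 lower and a median of 0.41. ENG was at 1.29, ABCC9 at 1.15 and NOTCH3 at 1.08 ± 0.51, and ACTA2, smooth muscle actin, was at −1.06. The erythrocyte list of 19 genes had a median of 0.49, and its part in the other differences was not tested.

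In the Notch pathway, which controls cell fate, 4 of 27 genes were higher (14.8%) and 3 lower (11.1%). HES5, a target repressor, was at 2.11, 1.46, 1.77 and 2.23, above 2-fold on every array, while HES6 was at −2.25 and HEY1 at −1.25 at 2 h. Cytokine genes past 2-fold were led by IFNA6 at 6.62, at the limit of the scale, and IL7 at 3.37, each from 1 feature. CXCL8 was at −2.05. Interferon-stimulated genes had none higher of 37 and 2 lower.

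Signals and channels of neurons were read mostly by single features. Neuropeptide precursors past 2-fold were higher in 4 of 35 (11.4%) and lower in 5 (14.3%). HCRT, the precursor of the wake-promoting orexins, was at 1.73 and at 1.48, 0.79 and 0.74 later. NMB, neuromedin B, was at −2.30, with −0.56, −0.59 and −0.80 later. GRP, gastrin-releasing peptide, was at −1.88, −1.68, −1.68 and −1.43, past 2-fold lower on every array. Of 83 potassium channel genes 7 were higher (8.43%) and 7 lower. KCNA3, a voltage-gated channel, was at −1.96, and KCNS1, a modifying subunit, at 1.57 at 2 h and at 4.55, 5.41 and 4.48 later, so KCNS1 was nearest to vehicle at 2 h. Of 37 calcium and sodium channel genes 3 were higher (8.11%) and 1 lower (2.70%). SCN10A, a sodium channel, was at 1.79, CACNA1G, a low-threshold calcium channel, at 1.37 and CACNB3 at 1.01 ± 0.62, and the lower one was CACNA2D4 at −1.98.

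Synaptic release genes were higher in 5 of 41 (12.2%) and lower in 1. NAPA, which recycles SNARE complexes, was at 1.29, and DNM1, the dynamin of vesicle retrieval, at 1.08. SYT4, a synaptotagmin, was at −1.39, followed by −1.14, −0.67 and −0.87. Monoamine and acetylcholine receptor genes had 1 of 44 past 2-fold (2.27%), below the share of all genes. It was HTR6, a serotonin receptor, at 1.38, 1.54, 1.11 and 1.63. Among metabotropic glutamate receptors, GRM7 was at 1.52 and GRM8 at −1.98.

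Lysosome and autophagy genes were lower in 4 of 50 (8.00%) and higher in 1. ATG12, which takes part in autophagosome growth, was at −1.33 ± 0.55 (n = 3), with −0.81, −0.70 and −0.90 later. CTSF, a lysosomal protease, was at 1.41, and ATP6V1G1, of the proton pump, at −1.38. Iron genes were lower in 3 of 25 (12.0%). ISCU, the scaffold of iron-sulphur cluster assembly, was at −1.27, and TFR2, a transferrin receptor, at 1.86. Among glucocorticoid and metallothionein genes 3 of 31 were lower (9.68%) and 1 higher. KLF9, a glucocorticoid-induced factor, was at −1.95, and the receptor gene NR3C1 at −1.03 ± 1.01 (n = 3).

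Families outside neuronal function are given beside the shares of all genes, 5.47% higher and 7.22% lower. Zinc finger genes were lower in 12.0% of 440, above the share of all genes, and higher in 5.91%. Over the 324 with a regional median, their median was −0.05 before its subtraction and −0.20 after. Histone genes were higher in 8.97% of 78, where H3C10 was at 1.82, and H2AZ1, a variant histone, was at −1.44 ± 0.20 (n = 3). In DNA replication and division, 8.33% of 96 genes lay past 2-fold in each direction. MCM3, of the replicative helicase, was at 2.12 and PCNA, the sliding clamp, at −1.37. MKI67, a marker of dividing cells, was at 2.02, −0.98, 1.44 and −0.26, with no constant side over the arrays. The 5 highest and 5 lowest genes of the array rested on 1 feature each. IFNA6 and SLURP1 were at 6.62, the limit of the scale, followed by ZBTB12 at 6.39 and MYH15 at 6.26. S100A3 was at −5.97 and LCA5L at −4.24 on the low side.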

How the data were processed

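RNA of laser-captured substantia nigra was measured on 4 two-colour human oligonucleotide arrays, 1 per time, each against the same vehicle animal, per the labels' protocols. The deposited values were read as log10 ratios of Cy5 over Cy3, because they centre near 0, stop at 2 in size and the labels give the dyes. Software, background correction and normalization: not given in the sources used here. Here the deposited values were converted to log2, the array median over all features was subtracted, and features of the same gene were summarised by their median. Of 43931 features, 29033 (66.1%) had 1 symbol in the platform annotation, 97 had several and 14801 had none. Of 18014 symbols, 15319 (85.0%) occur in marmoset RefSeq (calJac240_pri), which was used for gene order.

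With 1 array and no replicate, no test was run, and the number of arrays limits the precision. Genes were counted at 2-fold, and lists were described by counts and medians. The scripts used Python 3.11.15, pandas 2.3.3 and numpy 2.4.6. The calculation of gene medians was run on shuffled features of the 2 h array with known differences added. Its outcome follows from arithmetic, so it says nothing about the measured differences. Genes and lists were chosen with earlier results of these data known. Named genes were the 20 highest and 20 lowest agreeing genes, the 5 highest and 5 lowest of all, up to 6 per list past 2-fold, key members of each list, and genes with 10 or more features past 2-fold. CDC37, HSBP1, HSPA4, HSPBP1, MRPL20, NDUFA2, PSMD12 and RPL8 fall outside that rule and were chosen after their values were seen. Alternatives covered centring, exact zeros, the mean over features, a 3-fold threshold, values at the limit, the spread of the array and genes with 2 or more features. Regional subtraction and a restriction to marmoset symbols were added after seeing the data. A planned count of promoter motifs was not run, and no sequences were used here.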

Additional observations from a re-analysis of the deposited data

Results flagged for a closer look

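Several genes named by the rule were past 2-fold in opposite directions at 2 h and at a later time, and these differences were not tested. Each time point is 1 animal, and the arrays share the vehicle RNA. TOP2A, a DNA topoisomerase of dividing cells, was at 4.50 at 2 h but at −1.25 on the 1 day array and −3.36 on the 14 days array. IFNA6, an interferon, was at 6.62 at 2 h, the limit of the scale, and at −1.08 at 6 h. IL7, a cytokine of lymphocytes, was at 3.37 at 2 h and −1.61 at 14 days. ZNF623, a zinc finger gene, was at −2.56 at 2 h, 1.08 at 6 h and 4.75 at 1 day. VAMP1, a synaptic vesicle SNARE, was at 1.18 at 2 h and −1.03 at 6 h. The olfactory receptors OR2S2 and OR4D5 were at 1.04 and 1.02 at 2 h and at −1.83 and −1.17 at 6 h. All of these rest on 1 feature. TUBB1, a tubulin of platelets, had 2 features and was at −1.89 at 2 h and 1.11 at 14 days.

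Features without a gene name, which no comparison above uses, passed 2-fold at 2 h in 2889 cases (19.5%), beside 4834 named features (16.65%).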

How the results depend on the processing

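Counts depended on the threshold and on the spread of the array. The 985 higher and 1301 lower genes became 274 and 343 at 3-fold, 192 and 227 with the array scaled to the spread of the later arrays, and 188 and 380 among genes with 2 or more features. The 37 and 99 agreeing genes became 2 and 13 at 3-fold and 2 and 7 after scaling. The olfactory receptor median of 0.11 over 112 genes became −0.11 over the 3 with 2 or more features and −0.033 over the 37 with a regional median. Both settings leave most of the family out, and the cause was not tested. The chaperone median ranged from −0.42 to −0.20 over the alternatives, that of cytosolic ribosomal proteins from −0.45 to −0.25 and that of other immediate early genes from 0.14 to 0.34. Of 608 named genes, 601 kept their side of the 2-fold threshold with the mean over features, and none reversed under the 5 alternatives run on them. With 1 or 2 features the mean is the median, so such genes could not change there. Centring shifts all genes alike, and the settings on zeros and limits reach only genes with such values. These counts therefore say little about how firm the named values are. No paired analysis was possible because each time has 1 sample and all share 1 vehicle animal. Signal over background is unknown, so dim features could not be set aside.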
